A study of Mus musculus with 9 samples.

Results

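The loci of 9 transcription factor genes of the otic and other cranial placodes were examined in an ATAC-seq series of sorted mouse embryonic cells. The genes were Pax2, Pax8, Gbx2, Dlx5, Dlx6, Hmx2, Hmx3, Otx1 and Otx2, taken as a named list from 22225 protein-coding genes. Each locus was the mm9 gene body with 50 kb added on each side, and a peak belonged to it when the midpoint of the peak lay inside. The windows of Dlx5 and Dlx6 overlap and held the same peaks, and those of Hmx2 and Hmx3 nearly so, which left 7 distinct loci. After the peaks of all libraries were merged, 48 of the 73335 merged regions of the genome lay in the 7 loci.

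All embryos were Swiss Webster at E9.5, and GFP-positive, DAPI-negative cells were sorted from pooled dissected tissue, with 3 libraries per group. The Tbx1-Cre Ctrl cells were Tbx1Cre;Rosa26-GFPflox/+, in which GFP marks cells that have expressed Tbx1 and their descendants. Because Tbx1Cre is a knock-in, these control cells already carried only 1 working copy of Tbx1. The Tbx1-Cre cKO cells were Tbx1Cre/flox;Rosa26-GFPflox/+ and lost the remaining copy in the same lineage. The Mesp1-Cre Ctrl cells were Mesp1Cre;Rosa26-GFPflox/+, a mesoderm lineage with both Tbx1 copies intact. All groups carried the same GFP reporter allele. The source of every library was given as pharyngeal mesoderm, although the Tbx1 lineage also takes in endoderm and ectoderm, and the dissections differed. The labels name the pharyngeal apparatus and heart for the Mesp1-Cre group and the same tissues with the back for both Tbx1-Cre groups, whereas the methods describe tissue taken without the heart. Lineage, dissection and number of Tbx1 copies therefore cannot be told apart when the Mesp1-Cre group is compared with either Tbx1-Cre group. According to the study's sample summary, each library came from its own pool of embryos. The methods describe separate crosses for the Tbx1-Cre Ctrl and cKO embryos, with mothers that differed in Tbx1 genotype. Cross and loss of Tbx1 therefore cannot be told apart between these groups. The litters behind each library are not given, so the tests measure the spread between these libraries, which may be partly technical. No Mesp1-Cre library in that summary has the list length of the one labelled library 1, so its pool is uncertain. The lists labelled 2 and 3 have the lengths given there for samples 1 and 2. Members called lower in Mesp1-Cre than in Tbx1-Cre Ctrl cells are also counted without library 1. So are regions called in all 3 Tbx1-Cre Ctrl libraries and no Mesp1-Cre library, but not every result that uses library 1.

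The deposited values were peak positions, with no read counts, heights or scores, so sequencing depth was unknown and no interval could be given for a single count. The lists held 43298 to 49490 peaks in the Tbx1-Cre Ctrl libraries, 19772 to 29251 in the cKO libraries and 25485 to 42650 in the Mesp1-Cre libraries. They covered 23.6 to 26.6, 9.73 to 14.5 and 12.9 to 22.1 Mb, in the same order. Every cKO list was therefore shorter than every Tbx1-Cre Ctrl list, and a peak missing from a list means that the region was not called there, not that its chromatin was closed. In mixed cells, fewer cells with open chromatin and less open chromatin per cell cannot be told apart. The targeted gene gave 12, 12 and 12 peaks at its own locus in the Tbx1-Cre Ctrl libraries and 6, 4 and 4 in the cKO libraries. The Mesp1-Cre libraries, with both Tbx1 copies intact, had 10, 9 and 8. Every cKO library lay below every Tbx1-Cre Ctrl library at 24.4% of all protein-coding genes, and every Mesp1-Cre library did at 9.38%. Peak positions do not read out the deletion of the floxed part.

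The otic placode is a patch of thickened head ectoderm that invaginates to form the otic vesicle, from which the inner ear and its neurons arise. Pax2 and its close paired-box relatives mark the ectoderm competent to form it, and homeobox factors of the Gbx, Dlx, Hmx and Otx families later divide the vesicle into regions that form the vestibular and auditory parts. Tbx1 is itself expressed in the otic vesicle as well as in the pharyngeal apparatus, and inner ear formation is disturbed in mice that lack it. Several of the same factors act elsewhere in the head, Dlx5 and Dlx6 in the pharyngeal arches and Otx2 in the forebrain and midbrain.

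Of the 48 regions at these loci, 4 were open in every library of at least one group while another group had no call, and they are shown because this was the clearest pattern of calls. They were picked for it, and none of them lay at Pax8, Dlx5, Dlx6 or Otx2. Regions are named by the distance of their midpoint from the nearest annotated start site of the member, with a minus sign for upstream. Up to 300 bases free of UTR exons are printed for 3 of them, from the plus strand of NCBIM37, the assembly of mm9. The whole of the fourth, Gbx2 +2.0 kb, lay in UTR exons and its sequence is not printed. The region Pax8 -46.2 kb is added as a contrast, chosen after its values were seen, because it was called in all 9 libraries. Capitals mark the bases that lay inside the peaks of every library that called the region.
Pax2 +65.9 kb, chr19:44900079-44900378, intron of Pax2: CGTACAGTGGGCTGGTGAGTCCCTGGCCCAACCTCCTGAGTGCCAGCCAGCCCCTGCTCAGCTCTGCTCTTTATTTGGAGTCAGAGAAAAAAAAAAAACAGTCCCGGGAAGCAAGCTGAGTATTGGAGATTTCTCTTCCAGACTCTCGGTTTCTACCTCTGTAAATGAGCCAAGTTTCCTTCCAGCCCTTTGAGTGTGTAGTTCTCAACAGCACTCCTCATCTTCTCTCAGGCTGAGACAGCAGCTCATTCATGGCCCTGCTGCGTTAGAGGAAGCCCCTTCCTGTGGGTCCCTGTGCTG
Otx1 -5.5 kb, chr11:21908233-21908532, intron of Ehbp1: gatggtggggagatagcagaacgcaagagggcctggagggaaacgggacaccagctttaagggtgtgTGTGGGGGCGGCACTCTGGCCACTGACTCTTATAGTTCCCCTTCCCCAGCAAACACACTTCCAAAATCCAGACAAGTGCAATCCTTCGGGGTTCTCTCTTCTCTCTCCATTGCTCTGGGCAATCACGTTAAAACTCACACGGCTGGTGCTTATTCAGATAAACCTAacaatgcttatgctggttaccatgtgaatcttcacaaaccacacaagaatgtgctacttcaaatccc
Hmx2 promoter, chr7:138697346-138697575, the bases just before the Hmx2 start site: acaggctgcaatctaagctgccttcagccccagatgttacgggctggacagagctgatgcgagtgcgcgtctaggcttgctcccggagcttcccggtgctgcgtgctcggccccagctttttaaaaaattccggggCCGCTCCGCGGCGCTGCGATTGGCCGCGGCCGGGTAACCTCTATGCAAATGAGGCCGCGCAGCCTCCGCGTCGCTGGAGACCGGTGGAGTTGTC
Pax8 -46.2 kb, chr2:24377130-24377429, intergenic: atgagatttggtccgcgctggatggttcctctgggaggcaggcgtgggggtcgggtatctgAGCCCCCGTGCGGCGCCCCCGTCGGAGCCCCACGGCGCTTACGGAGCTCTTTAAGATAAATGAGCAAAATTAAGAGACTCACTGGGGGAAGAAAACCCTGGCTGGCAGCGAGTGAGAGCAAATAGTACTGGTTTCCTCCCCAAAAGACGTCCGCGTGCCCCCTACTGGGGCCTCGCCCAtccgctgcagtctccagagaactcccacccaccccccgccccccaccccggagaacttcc
The shared part was 315 bp at Pax2 +65.9 kb, 166 bp at Otx1 -5.5 kb, 300 bp at the Hmx2 promoter, where it ran on past the start site, and 179 bp at Pax8 -46.2 kb. The 4 printed stretches had GC contents of 52.7%, 49.7%, 63.9% and 62.3%, respectively. Over the central 200 bp of every region, the median GC content was 58.5% for the 48 regions and 52% for 73330 regions with sequence. In the same windows and on both strands, GGTGTGA, the core letters of a T-box site, were found in 0 of 48 regions and in 2.49% of all regions. TAATCC, the letters preferred by OTX proteins, were in 0 of 48 and 4.72%, and TAATTA, a common homeodomain core, in 0 of 48 and 3.67%. These OTX and homeodomain letters overlap in part. A paired domain core, GCGTGAC, was in 1 of 48 regions and 0.974% of all regions. None of the 4 motifs occurred in the printed stretches, which says only that these letters are not in these windows.

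Accessibility at the 7 loci was first compared between Tbx1-Cre Ctrl and cKO cells, which asks how the loci looked when the lineage lost its remaining Tbx1 copy. The 7 loci together held 32, 28 and 28 peaks in the Ctrl libraries, 13, 8 and 7 in the cKO libraries and 21, 10 and 18 in the Mesp1-Cre libraries. Means were 29.3 ± 2.31, 9.33 ± 3.21 and 16.3 ± 5.69 (SD, n = 3 libraries each). The cKO counts lay below every Ctrl count, and the cKO and Mesp1-Cre counts overlapped. Every Ctrl and Mesp1-Cre library had a peak at all 7 loci, whereas 1, 2 and 2 loci had none in the cKO libraries. The share of all genes without a peak in each library is not given, so these numbers have no background here. Divided by the length of each list, the loci held 6.47, 6.47 and 5.96 peaks per 10000 peaks in Ctrl and 4.44, 3.33 and 3.54 in cKO libraries, so every cKO value was still below every Ctrl value. The Mesp1-Cre libraries had 4.92, 3.92 and 5.89, below every Ctrl value by this measure.

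**Figure D1:**
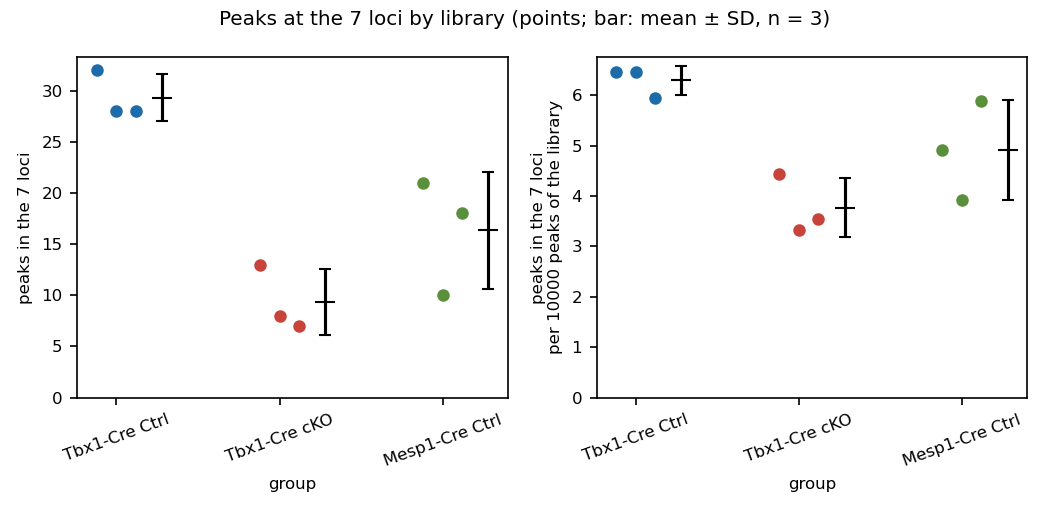
Peaks at the 7 loci in each library, as a count (left axis panel, peaks) and per 10000 peaks of the library (right panel), for the 3 groups; points are libraries, and the black marks give the mean and SD of 3 libraries. The 3 cKO points lie below all 3 Tbx1-Cre Ctrl points in both panels, from 7 to 13 peaks against 28 to 32, and the Mesp1-Cre points, from 10 to 21 peaks, lie below the Ctrl points and overlap with the cKO points.

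Peaks per locus were then tested gene by gene, with an exact two-sided permutation test over the 20 ways to split 6 libraries into 3 and 3, which cannot give a p below 0.1. A locus is called lower here when every library of one group held fewer peaks than every library of the other. In cKO against Tbx1-Cre Ctrl cells, 7 of the 9 members were called lower and none higher, against 24.4% of all 22225 protein-coding genes called lower. These 7 are not separate cases, because Dlx5 and Dlx6 share all their peaks and Hmx2 and Hmx3 nearly all. Pax8 and Otx2 were the 2 members with overlapping groups. The background was 29.1% among the 18628 genes with a peak in every Ctrl library and 26.2% among the 9073 genes whose Ctrl mean was in the range of the members. The median difference was -2.67 peaks over the members and -1.33 over all genes. No gene could pass a threshold of 0.05: the exact p was 0.1 for each of the 7 called members and 0.407 after Benjamini-Hochberg adjustment over all protein-coding genes. The length of the peak lists moved with the counts at the loci, and its part in these differences was not tested. When each list was reduced to its 19772 widest peaks, the length of the shortest list, 1 of 9 members was called lower, Otx2, and 1.09% of all genes.

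**Figure D2:**
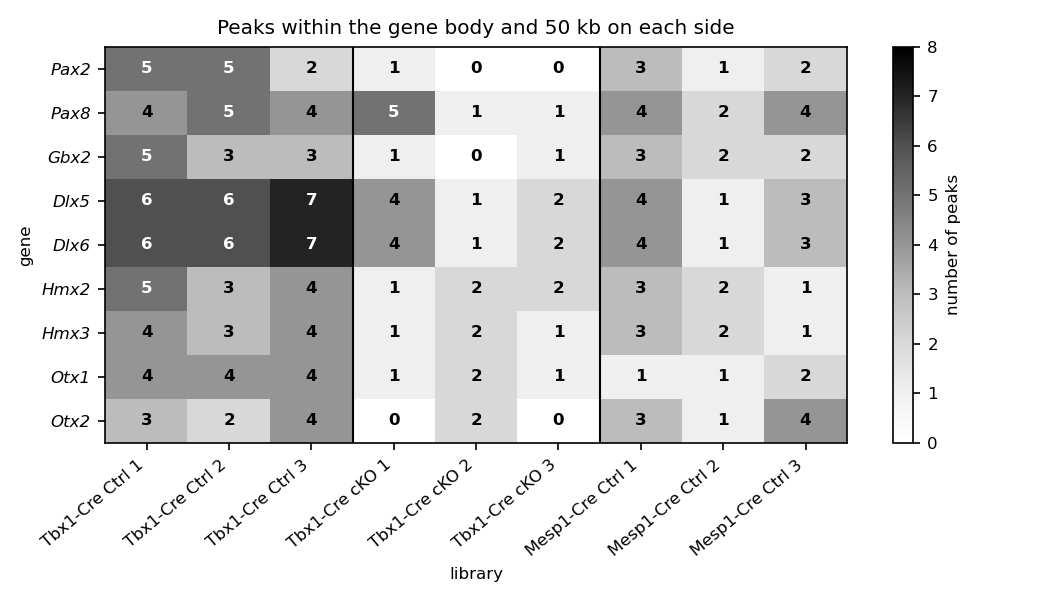
Number of peaks within the gene body and 50 kb on each side for each of the 9 genes (rows) in each of the 9 libraries (columns), with the number printed in each cell and shaded from 0 (white) to 8 (black). The Tbx1-Cre Ctrl columns hold 2 to 7 peaks per locus and the cKO columns 0 to 5, with Pax8 in cKO library 1 the one cKO cell that reaches 5.

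Among the paired-box genes, Pax2, which is required for the cochlear part of the otic vesicle and for the kidney, had 5, 5 and 2 peaks in Ctrl libraries and 1, 0 and 0 in cKO libraries. Its means were 4 ± 1.73 and 0.333 ± 0.577 (SD, n = 3 each), a difference of -3.67 peaks. No peak was called over the 182 kb of the locus in cKO libraries 2 and 3. The Pax2 gene is on chromosome 19 from 44830539 to 44912758. Covered sequence at the locus was 2845, 1402 and 522 bp in Ctrl libraries and 377, 0 and 0 bp in cKO libraries. Most of this lay away from start sites, with 3, 4 and 2 distal peaks in Ctrl libraries against 1, 0 and 0. Distal means that the midpoint was over 1 kb from every annotated start site of any gene.

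Pax2 +65.9 kb, the intronic region printed above, was the only region of this locus called in all 3 Ctrl libraries, with 766, 331 and 522 bp of peak. No cKO library and no Mesp1-Cre library called it. A region 5.4 kb upstream of Pax2 was called in Ctrl libraries 1 and 2, with 676 and 226 bp, and in no other library. The 1 cKO peak, of 377 bp, lay 29.8 kb upstream, in a region also called in Ctrl library 2 and in Mesp1-Cre libraries 1 and 2. At the Pax2 promoter, defined as within 1 kb of a start site, a peak was called in Ctrl library 1 and in Mesp1-Cre libraries 1 and 3, and in no cKO library.

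Pax8, which acts with Pax2 in the otic placode and is needed for the thyroid, did not separate the groups by peak count. It had 4, 5 and 4 peaks in Ctrl libraries and 5, 1 and 1 in cKO libraries, a difference of -2 peaks (exact permutation p = 0.4, adjusted 0.714). The groups overlapped because cKO library 1, the longest cKO list, held as many peaks as any Ctrl library. Its 5 peaks were 2 at the promoter of the neighbouring gene Psd4, 2 in Pax8 -46.2 kb and 1 at the Pax8 promoter. Covered sequence at Pax8 did separate the groups, with 1442, 2538 and 1781 bp in Ctrl and 1358, 371 and 548 bp in cKO libraries. The intergenic region Pax8 -46.2 kb (chromosome 2, 24376744 to 24377868) accounted for 592, 880 and 625 bp of the Ctrl values and 679, 371 and 548 bp of the cKO values. In cKO libraries 2 and 3 it was the only peak at the locus. Mesp1-Cre libraries had 754, 574 and 873 bp there, so this region was called in every library, at widths from 371 to 880 bp. A region 27.6 kb upstream was called in Ctrl libraries 2 and 3 only, with 408 and 211 bp. The Pax8 promoter was called in 1 library of each group.

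Gbx2, a homeobox gene that helps to set the midbrain-hindbrain boundary and is needed in the dorsal otic vesicle, had 5, 3 and 3 peaks in Ctrl libraries. In cKO libraries it had 1, 0 and 1, a difference of -3 peaks, and in Mesp1-Cre libraries 3, 2 and 2. It was the only member whose cKO counts lay below both other groups. cKO counts were lower than Mesp1-Cre counts at 1 of 9 members, against 5.61% of all genes. No library had a peak at the Gbx2 promoter, and all of its peaks were distal except 1 in Mesp1-Cre library 3, which lay within 1 kb of a start site of the overlapping gene D130058E05Rik.

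The region Gbx2 +2.0 kb (chromosome 1, 91827548 to 91828187) lies in a UTR exon shared by Gbx2 and the overlapping gene D130058E05Rik. It was called in all 3 Ctrl libraries, with 227, 640 and 559 bp, and in all 3 Mesp1-Cre libraries, with 430, 449 and 237 bp. No cKO library called it. The peaks joined into it overlapped in a chain, and no base of it was shared by all calling libraries. The single peaks of cKO libraries 1 and 3, of 228 and 230 bp, lay 47.3 kb downstream in an intron of Agap1, where all 3 Ctrl libraries had 411, 484 and 377 bp.

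Dlx5 and Dlx6, neighbouring Distal-less homeobox genes that pattern the pharyngeal arches and the vestibular part of the inner ear, held the most peaks of the members in the Tbx1-Cre Ctrl libraries. Their shared peaks numbered 6, 6 and 7 in Ctrl libraries and 4, 1 and 2 in cKO libraries, a difference of -4. Covered sequence was 2125, 2242 and 3178 bp in Ctrl and 1452, 206 and 502 bp in cKO libraries. Only 8.54% of all protein-coding genes had a more negative difference in peaks per locus. The distal peaks of this locus overlapped between the groups, with 4, 2 and 3 against 2, 1 and 1 (exact permutation p = 0.2, adjusted 0.709).

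A peak was called at the Dlx5 promoter in all 3 Ctrl libraries and no cKO library, and in Mesp1-Cre libraries 1 and 3. These peaks fell into adjoining merged regions, so that neither region by itself was called in all 3 Ctrl libraries. Dlx6 had a promoter peak in cKO libraries 1 and 3, and had one in every Ctrl and every Mesp1-Cre library. The Dlx6 region over its first coding exon covered 548, 663 and 622 bp in Ctrl, 397, 0 and 239 bp in cKO and 592, 362 and 507 bp in Mesp1-Cre libraries. Of the distal regions, the one 3.1 kb upstream of Dlx5 was called in all 3 Ctrl libraries with 345, 213 and 218 bp and in cKO libraries 1 and 3 with 393 and 263 bp. Another, 33.3 kb upstream, had 602, 245 and 602 bp in Ctrl libraries and 289 and 206 bp in cKO libraries 1 and 2. A region 32.7 kb upstream of Dlx6, at a start site of the antisense transcript Dlx6os1, was called only in Ctrl libraries 2 and 3.

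**Figure D3:**
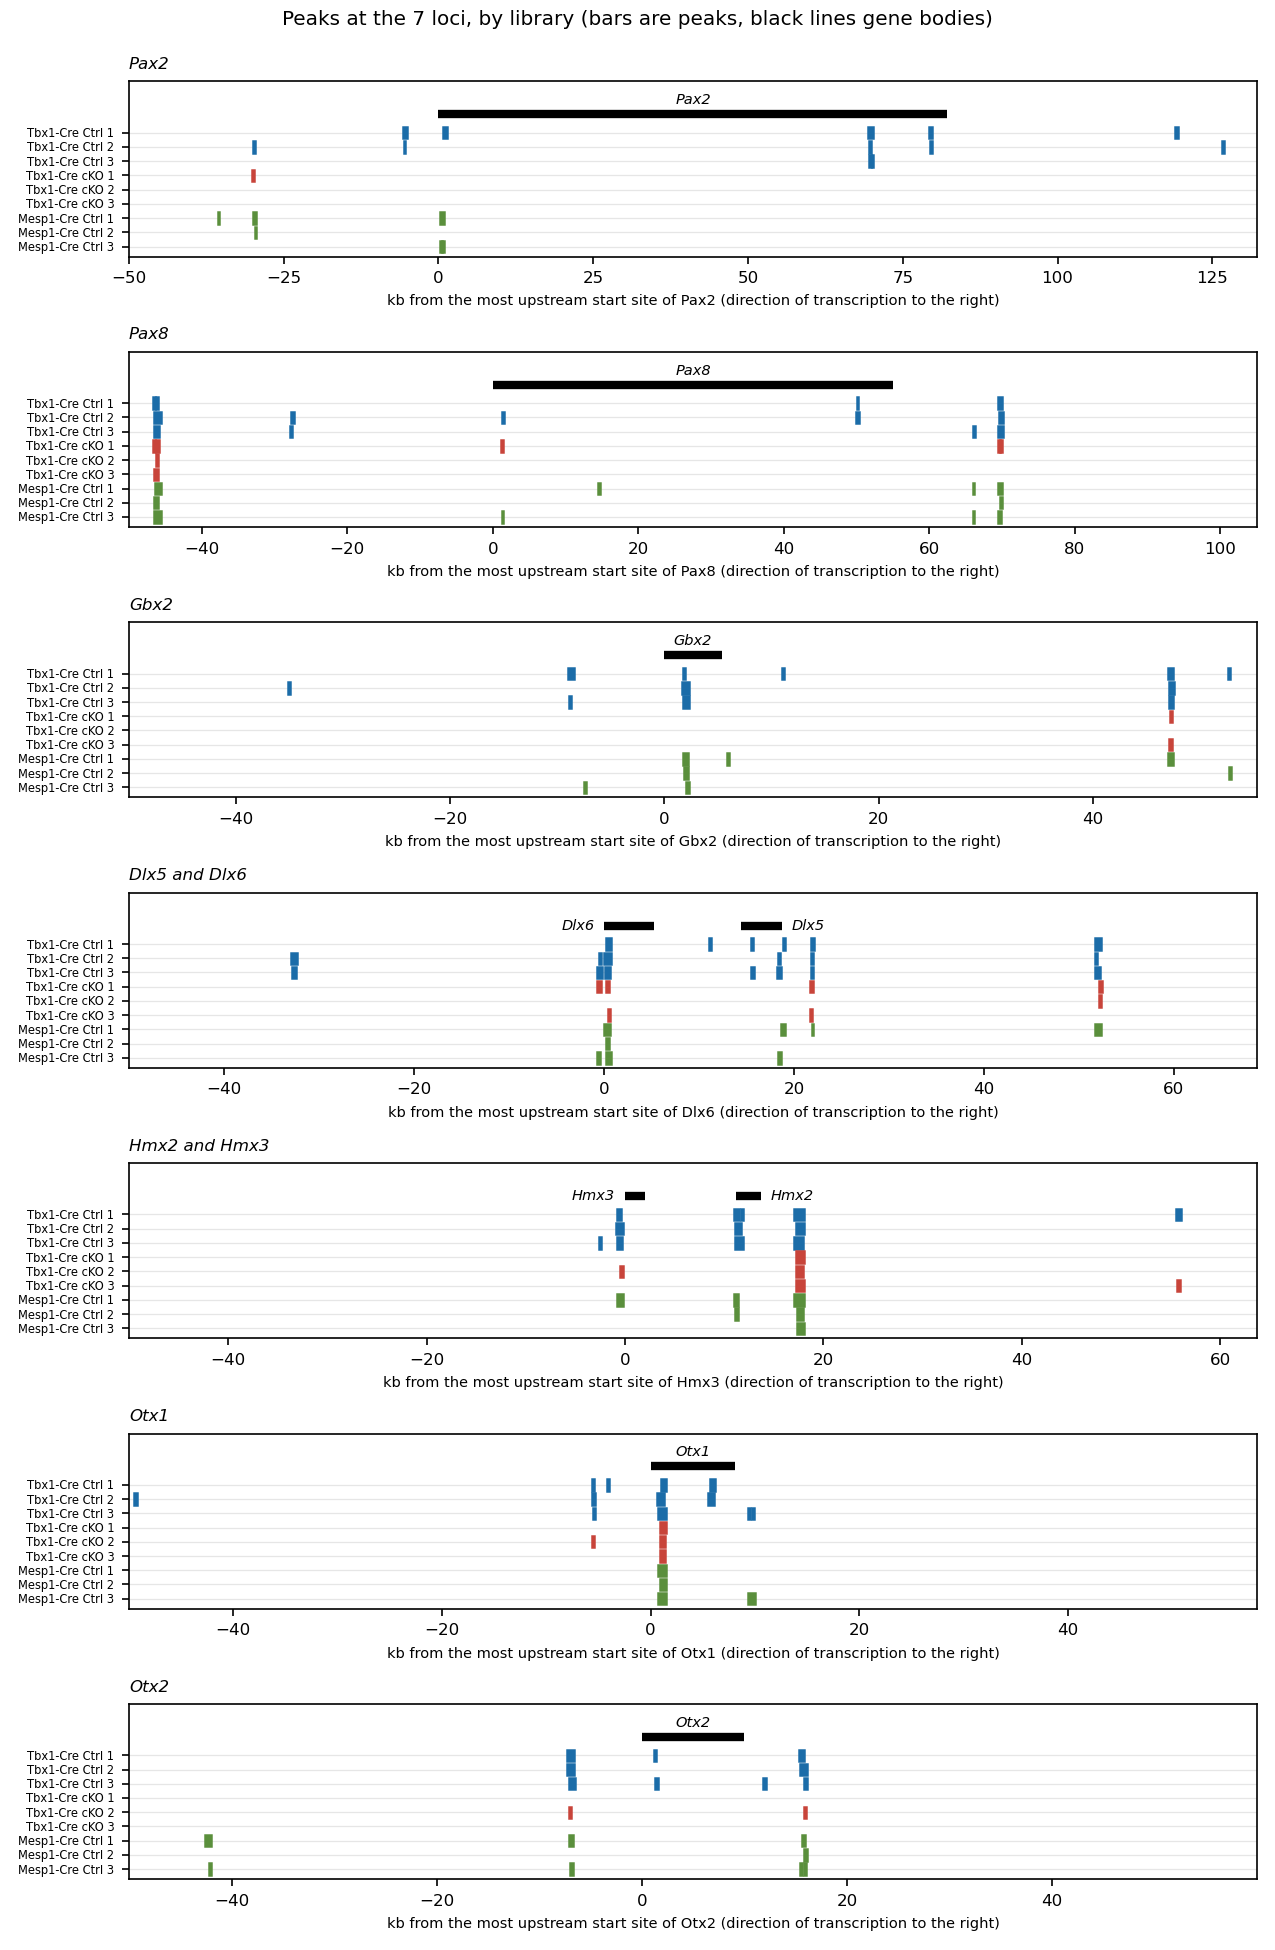
Peaks of each library (rows) at the 7 loci (panels) against distance in kb from the most upstream annotated start site of the named gene, with gene bodies as black lines and each bar a peak drawn to scale plus a thin outline. Several positions are filled in every Tbx1-Cre Ctrl row and empty in every cKO row, among them the intronic Pax2 position and the start of Hmx2, whereas the Otx1 start and the far upstream Pax8 position are filled in all 9 rows.

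Hmx2 and Hmx3, adjacent homeobox genes that are required for the vestibular part of the inner ear, had nearly all of their peaks at promoters. Hmx2 had 5, 3 and 4 peaks in Ctrl libraries and 1, 2 and 2 in cKO libraries, and Hmx3 had 4, 3 and 4 against 1, 2 and 1. Both differed by -2.33 peaks. Distal peaks were rare in every group, at most 1 per library, with a difference of -0.333 for each gene.

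The Hmx2 promoter region (chromosome 7, 138697346 to 138698295) was called in all 3 Ctrl libraries, with 674, 591 and 839 bp, and in no cKO library. Mesp1-Cre libraries 1 and 2 had 462 and 300 bp there and library 3 none. At the Hmx3 promoter the Ctrl libraries had 434, 708 and 494 bp, cKO library 2 had 364 bp and Mesp1-Cre library 1 had 576 bp. The peak called in every library at this locus belonged to a neighbour, the promoter of Bub3, a mitotic checkpoint gene, with 638 to 768 bp in cKO libraries. Without it, cKO library 1 would have had no peak at Hmx2 or Hmx3.

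Otx1, an orthodenticle homeobox gene needed for the lateral semicircular canal, had 4 peaks in each Ctrl library and 1, 2 and 1 in cKO libraries, a difference of -2.67. Mesp1-Cre libraries had 1, 1 and 2. Its promoter was called in all 9 libraries, as for 48.7% of all protein-coding genes, and it was the only member with that pattern. The promoter region (chromosome 11, 21901372 to 21902260) covered 539, 670 and 817 bp in Ctrl, 589, 483 and 520 bp in cKO and 769, 635 and 807 bp in Mesp1-Cre libraries. The Ctrl widths overlapped with those of both other groups, whereas every cKO width lay below every Mesp1-Cre width. The share of all regions with such a separation is not given. The whole difference at Otx1 was distal, with 3, 3 and 3 peaks in Ctrl libraries against 0, 1 and 0 in cKO and 0, 0 and 1 in Mesp1-Cre libraries. Otx1 -5.5 kb, printed above, had 222, 375 and 218 bp in Ctrl libraries, 214 bp in cKO library 2 and no peak in the Mesp1-Cre libraries.

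Otx2, a homeobox gene of the forebrain, midbrain and ventral otic vesicle, had 3, 2 and 4 peaks in Ctrl libraries, and the cKO group had 0, 2 and 0. The groups met at 2 peaks, and the difference of -2.33 had an exact permutation p of 0.2 (adjusted 0.590). Covered sequence was 1441, 1373 and 1503 bp in Ctrl libraries and 0, 435 and 0 bp in cKO libraries, without overlap. The region 6.9 kb upstream was called in all 3 Ctrl libraries with 722, 717 and 596 bp, in cKO library 2 with 235 bp and in Mesp1-Cre libraries 1 and 3 with 404 and 239 bp. At the Otx2 promoter, Ctrl libraries 1 and 3 had a peak and no cKO or Mesp1-Cre library did. A region 42.3 kb upstream was called in Mesp1-Cre libraries 1 and 3 alone, with 629 and 236 bp.

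Start sites and distal sequence were next taken apart over all members. A promoter peak was called at 7, 6 and 6 of the 9 members in Ctrl libraries, 3, 2 and 2 in cKO libraries and 6, 3 and 5 in Mesp1-Cre libraries. The share of all genes with a promoter peak in each library is not given, so these counts have no background here. Dlx5 and Hmx2 had a promoter peak in all 3 Ctrl libraries and no cKO library, a pattern seen in 2 of 9 members and in 1.38% of all protein-coding genes. That background includes the 48.7% of genes with a promoter peak in all 9 libraries, and no background matched to the members is given. With lists of equal length, no member had this pattern. Gbx2 was the 1 member of 9 with no promoter peak in any library, compared with 33.9% of genes. Distal peaks were lower without overlap at 4 of 9 members, Pax2, Pax8, Gbx2 and Otx1, against 20.9% of all genes. The exact permutation p for each was 0.1 (adjusted 0.478). The share of the peaks at these loci that were distal was 57.1% to 62.5% in Ctrl libraries and 46.2% to 57.1% in cKO libraries, which touch at 57.1%.

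Covered sequence gave the widest separation but also the highest background. All 9 members had fewer covered bp in every cKO library than in every Ctrl library, as did 61.2% of all genes (exact permutation p = 0.1, adjusted 0.163 for each member). The median difference was -1347 bp over the members and -946 bp over all genes. Scaled to peaks per 10000 peaks of the library, 2 of 9 members were called lower, Pax2 and Gbx2, against 4.61% of genes. On that scale the median was -0.362 over the members and 0.139 over all genes, and none of the members was called higher, whereas 6322 genes were.

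**Figure D4:**
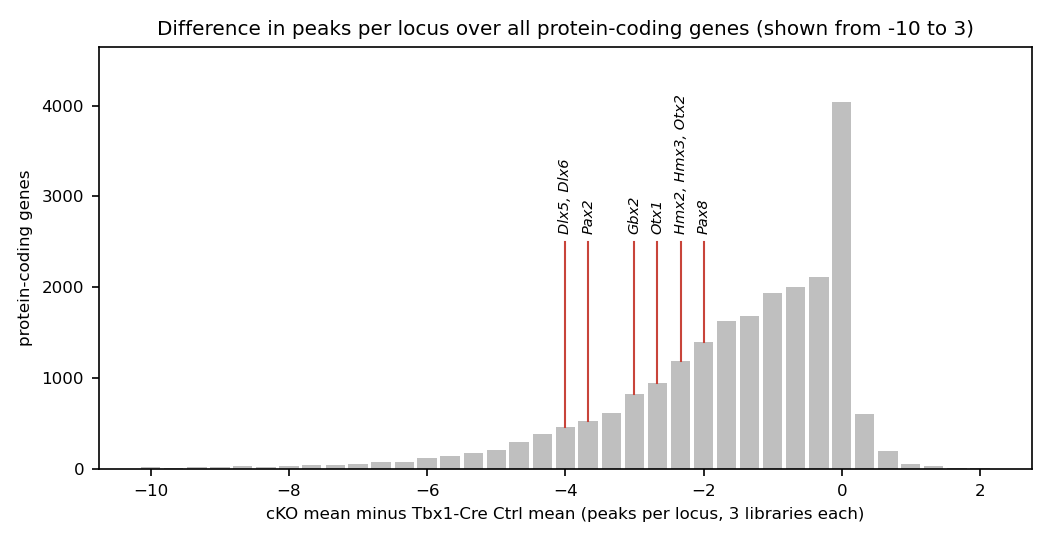
Distribution over all protein-coding genes (grey bars, number of genes) of the cKO mean minus the Tbx1-Cre Ctrl mean of peaks per locus, 3 libraries each, with the 9 members marked in red. All members lie to the left of the median of all genes, -1.33, from Dlx5 and Dlx6 at -4 to Pax8 at -2.

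By region, 43 of the 48 regions at the 7 loci were called in at least 1 Ctrl library, 16 in at least 1 cKO library and 27 in at least 1 Mesp1-Cre library. Of the 33 distal regions these numbers were 28, 8 and 15, and of the 10 promoter regions of the members 10, 5 and 9. A call in all 3 libraries was made for 15 regions in Ctrl, 3 in cKO and 7 in Mesp1-Cre cells. Of all 73335 regions, 31983 had a peak in at least 1 cKO library and 44976 in at least 1 Mesp1-Cre library. No all-region number is given for the Ctrl count, the region classes or calls in all 3 libraries. Nothing particular to these loci follows from those counts. The strictest pattern, all 3 Ctrl libraries and no cKO library, held for 3 of 48 regions, Pax2 +65.9 kb, Gbx2 +2.0 kb and the Hmx2 promoter, and for 6.73% of all 73335 regions. A share of 3 in 48 is near that background. When a library counted as calling a region only if its peaks covered at least 50% of it, 4 of 48 regions had this pattern, against 8.07% of all. These were Gbx2 +47.3 kb, Otx2 -6.9 kb and the promoters of Hmx3 and Hmx2, and neither Pax2 +65.9 kb nor Gbx2 +2.0 kb was among them. All 9 libraries called 3 of 48 regions, against 18.6% of all regions. These were the Otx1 promoter, Pax8 -46.2 kb and the Bub3 promoter. Of the 48 regions, 13 were called in 1 library only, against 31.6% of all regions. None of the 16 regions with a cKO peak lacked a Ctrl peak, compared with 5.39% of all regions with a cKO peak.

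**Figure D5:**
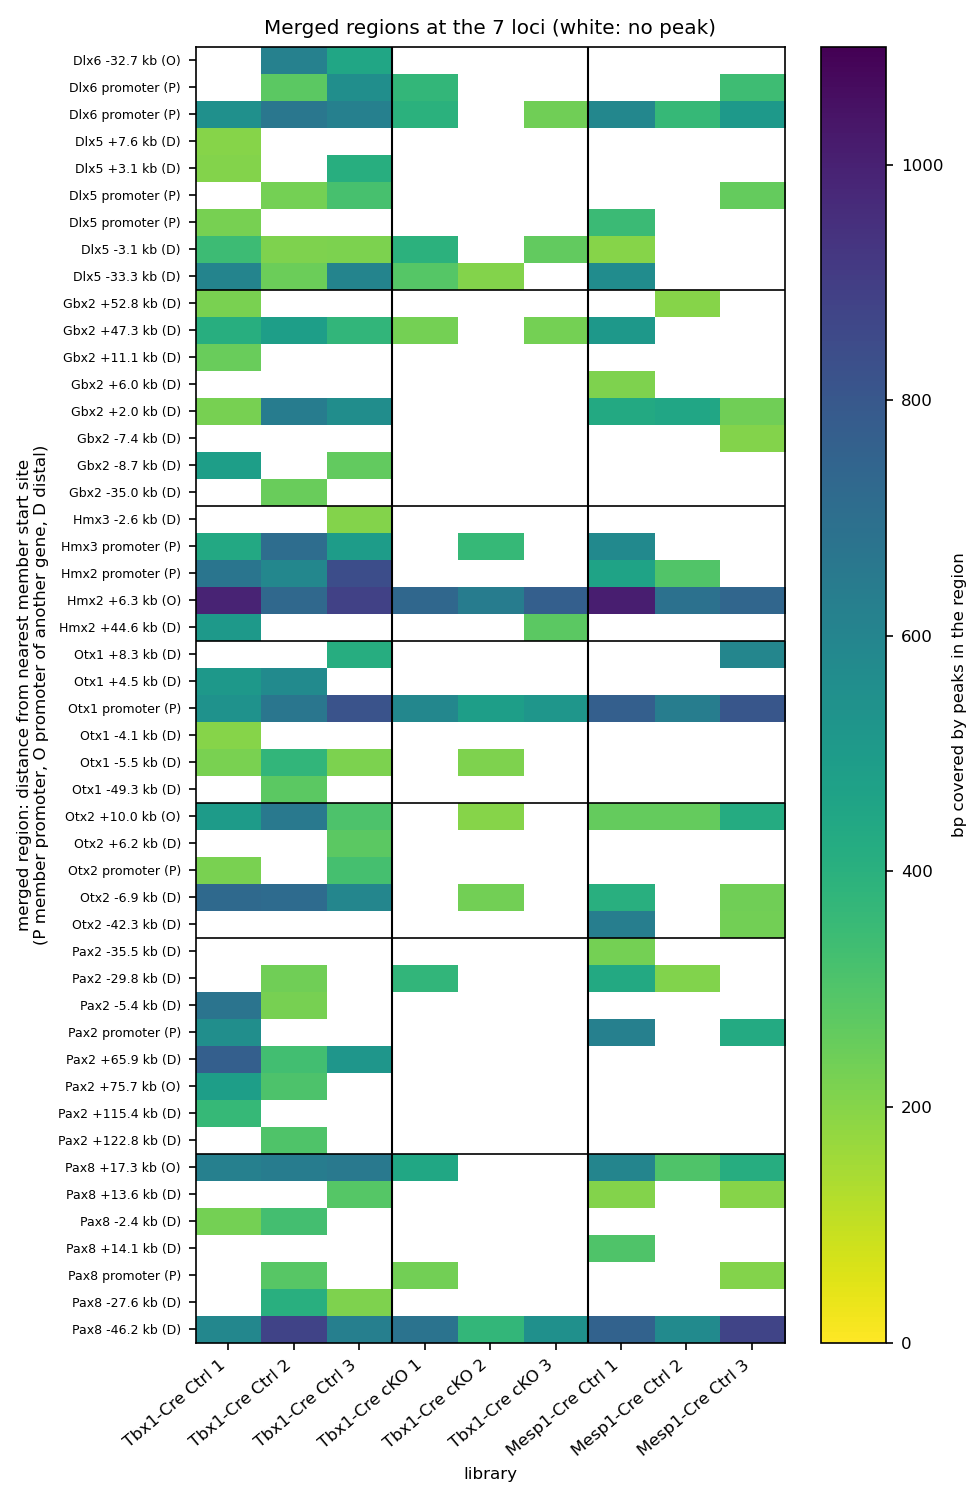
Covered bp in each library (columns) of each of the 48 merged regions (rows), grouped by locus and marked as member promoter (P), promoter of another gene (O) or distal (D); white means that no peak was called. In 16 of the 48 rows at least 1 cKO column is coloured, and 3 rows are coloured in every column, the Otx1 promoter, the region 46.2 kb upstream of Pax8 and the Bub3 promoter 6.3 kb downstream of the Hmx2 start.

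The Mesp1-Cre Ctrl cells were compared with the Tbx1-Cre Ctrl cells to see which of this accessibility was also called in a mesoderm lineage. Both this comparison and the previous one use the same Tbx1-Cre Ctrl libraries, so their results are not independent. Dlx5, Dlx6 and Otx1 were called lower in Mesp1-Cre cells, 3 of 9 members against 9.38% of all genes, with Dlx5 and Dlx6 sharing all their peaks. Dlx5 and Dlx6 had 4, 1 and 3 peaks against 6, 6 and 7 in Tbx1-Cre Ctrl libraries, a difference of -3.67, and Otx1 differed by -2.67. The exact permutation p was 0.1 for these members and 1 after adjustment over all protein-coding genes. Pax2, with 3, 1 and 2 peaks, Pax8, with 4, 2 and 4, and Otx2, with 3, 1 and 4, overlapped with the Tbx1-Cre Ctrl libraries. The differences ran from -0.333 at Otx2 to -3.67 at Dlx5 and Dlx6, with a median of -2 over the members and -0.667 over all genes. Without Mesp1-Cre library 1, the longest list of its group, 6 of 9 members were called lower, against 25.7% of all genes. Without Tbx1-Cre Ctrl library 2, the shortest of its group, 5 were, against 17.8%.

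Of the 48 regions, 2 were called in all 3 Tbx1-Cre Ctrl libraries and no Mesp1-Cre library, Pax2 +65.9 kb and Otx1 -5.5 kb, against 5.59% of all regions. Without Mesp1-Cre library 1 there were 6, against 9.38% of all regions, and the 4 added were Gbx2 +47.3 kb, Dlx5 -3.1 kb, Dlx5 -33.3 kb and the Hmx3 promoter. In the other direction, 5 of the 27 regions with a Mesp1-Cre peak had no Tbx1-Cre Ctrl peak, against 20.1% of all such regions. Of these 5, only Otx2 -42.3 kb was called in more than 1 Mesp1-Cre library, in libraries 1 and 3. Pax2 -35.5 kb, Pax8 +14.1 kb and Gbx2 +6.0 kb were called in library 1 alone, whose pool is uncertain. A promoter peak was called in at least 1 Mesp1-Cre library for every member except Gbx2 and Otx2, and at Gbx2 the region Gbx2 +2.0 kb was called in all 3. At Hmx3 the only Mesp1-Cre promoter peak was in library 1.

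Other genes of the otic network and related gene families were counted in the same way. Of 35 genes of the otic and placode network, 14 were called lower in cKO libraries and none higher, against 24.4% of all genes called lower, with a median difference of -2 peaks. Lmx1a, a LIM homeobox gene of the otic vesicle, had 14, 15 and 13 peaks in Ctrl libraries, and its cKO counts were 5, 4 and 1. Eya1, a transcriptional co-activator needed for ear formation, had 8, 8 and 10 against 3, 2 and 4. Sox9, an HMG-box factor of the otic placode and of cartilage, had 9, 7 and 8 against 4, 2 and 2. Gata3, a zinc-finger factor of the inner ear, had 7, 8 and 9 against 4, 2 and 3, and Dach1, a partner of Eya1, had 7, 10 and 10 against 4, 5 and 3. In Mesp1-Cre libraries, 9 of the 35 were called lower than in Tbx1-Cre Ctrl libraries, against 9.38% of all genes.

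Of 13 paralogues of the members, 6 were called lower in cKO libraries and none higher, with a median of -2.67. Pax7 had 14, 6 and 6 peaks against 3, 3 and 2, Pax3 9, 5 and 10 against 3, 4 and 2, and Gbx1 10, 4 and 4 against 3, 2 and 0. Pax1 and Pax9, genes of the pharyngeal pouches, differed by -4 and -3.67 peaks. Against the 24.4% of all genes given above, the shares of both lists are larger, but the genes of a list were not chosen to match the rest in number of peaks, and nothing particular to the lists follows from these counts.

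Markers of the cell types that the sort could hold were counted beside these results, against the same background of 24.4% of all genes called lower in cKO libraries and a median of -1.33. Of 10 epithelial markers, 4 were called lower in cKO libraries, with summed counts of 38 to 58 peaks in Ctrl, 25 to 31 in cKO and 29 to 48 in Mesp1-Cre libraries. Trp63, a defining gene of surface ectoderm, had 1 peak in each Ctrl library and 0 in every cKO and Mesp1-Cre library. Grhl2, an epithelial transcription factor, had 9, 4 and 7 peaks in Ctrl libraries, 3, 0 and 1 in cKO and 1, 1 and 0 in Mesp1-Cre libraries. The median difference from Ctrl over the epithelial markers was -1.33 in cKO and -0.167 in Mesp1-Cre libraries. Not every one of them was lower, and some were named after their values were seen. Esrp1 differed by 0.333 in both comparisons, and in Mesp1-Cre libraries Epcam, Cldn6 and Krt8 differed by 0 and Krt18 by 0.667. Of 10 mesoderm markers, 5 were called lower in cKO libraries, with sums of 44 to 75, 11 to 31 and 27 to 48. Prrx1, a mesenchyme gene, had 8, 5 and 8 peaks in Ctrl libraries, and the cKO group had 3, 1 and 0. Of 5 neural crest markers 3 were called lower, with sums of 26 to 36, 12 to 17 and 16 to 25, and of 5 endothelial and blood markers 2, with sums of 19 to 27, 11 to 12 and 15 to 26. Among the neural crest markers, Tcfap2b had no peak in any cKO library, and Foxd3 had at most 1 peak in any library. The summed counts of all 4 marker lists were thus lower in every cKO library than in every Ctrl library. These sums were not scaled to the length of each list, so they cannot be set beside the scaled member counts. The part of cell composition in the differences was not tested.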

How the data were processed

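The 9 loci were examined in 9 deposited peak lists, 3 libraries in each of 3 groups. According to the methods and the labels, the authors trimmed adapters with cutadapt, aligned reads to mm9 with Bowtie2 2.3.4.3, removed duplicate, discordant and mitochondrial reads, and ran MACS2 on every library by itself. The deposited files hold positions only, with no other score, signal or read count, so depth is not known. A deeper library can hold more peaks, and so can one with more open regions, and file length does not tell these apart. Scaling to file length, or cutting lists to equal length, is therefore not a correction for depth alone. Gene models were those of GENCODE for NCBIM37. Peaks whose midpoint lay within 50 kb of a gene body were counted for every protein-coding gene in Python 3.11.15 (numpy 2.4.6, pandas 2.3.3). Group means were compared by an exact two-sided permutation test across all protein-coding genes, adjusted by Benjamini-Hochberg, and the counting and test code was tested on simulated data. A locus was called when the groups of 3 libraries did not overlap. Peaks of all libraries were merged where they overlapped or touched. The last bases of 5 peaks per list lay beyond the chromosome end, by up to 247 bp, and these peaks stayed in. From each other gene list, at most 5 genes could be named by rule, those called lower with the largest difference, and not all of these are printed. Some markers outside this rule were added after their values were seen. Regions were named when called in 3 of 3 libraries of one group and 0 of 3 of another. The symbols Foxf1, Tfap2a and Tfap2b were matched through RefSeq synonyms, and every list gene was matched. The members, lists and tests were chosen with earlier results of these data known.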

Additional observations from a re-analysis of the deposited data

How the results depend on the processing

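Counts of members are given here with the share of all genes called in the same setting in brackets. Of 9 members, 7 were called lower in cKO libraries against Tbx1-Cre Ctrl. The count was 1 (1.09%) with lists of equal length, made of the widest peaks, which also changes the widths compared, 4 (21.6%) with the widest 75% of each list, 2 (4.61%) per 10000 peaks, and 7 to 8 (25.7% to 39.1%) when 1 library was left out. It was 6 (12.7%) with 10 kb on each side and 9 (35.3%) with 100 kb. The 4 members lower in distal peaks became 7 (31.6%) with 100 kb on each side, 1 (1.35%) with equal lists and 2 (17.0%) with the widest 75%, and 4 to 6 (21.9% to 32.9%) without 1 library. The 9 members lower in covered bp became 1 (27.4%) with equal lists, 6 (56.7%) with the widest 75% and 7 (42.7%) with 10 kb on each side. They stayed at 9 (71.2%) with 100 kb on each side and at 9 (61.8% to 71.6%) without any 1 library. For Mesp1-Cre against Tbx1-Cre Ctrl, 3 members became 1 (5.82%) with 10 kb on each side, 0 (1.78%) with equal lists and 0 (8.20%) with the widest 75%, and 3 to 6 (9.98% to 25.7%) without 1 library. For cKO against Mesp1-Cre, 1 member became 0 (2.11%) with equal lists, 0 (5.23%) with the widest 75% and 2 (3.56%) per 10000 peaks, and 1 to 3 (6.13% to 18.0%) without 1 library. Promoters with 3 Ctrl and 0 cKO calls went from 2 to 0 (0.162%) with equal lists. Regions of that kind numbered 3 at first and 3 to 7 (7.42% to 11.9% of all regions) without 1 library. They were 6, 6 and 7 without Ctrl library 1, 2 or 3 and 7 without cKO library 2. With equal lists there were 2 (1.44%), Otx2 -6.9 kb and the Psd4 promoter, neither among the first 3, and 4 (8.07%) when a peak had to cover 50% of the region. Regions with 3 Ctrl and 0 Mesp1-Cre calls numbered 2 to 6 (5.98% to 9.38%) without 1 Mesp1-Cre library. The cause of these changes was not tested beyond the construction of each list.

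The replicate numbers were shared by the groups, but same-numbered libraries did not deviate together in every pair (correlations of -0.0501 to 0.304), so they were not treated as pairs. The pool behind Mesp1-Cre library 1 is uncertain, which makes the numbers of that group less certain as well. The Mesp1-Cre labels also do not follow the numbering of the study's sample summary. Block counts with that group therefore rest on uncertain pairs. With a replicate block, 7 members (37.8% of all genes) were called lower in cKO against Tbx1-Cre Ctrl cells, 6 (30.8%) in distal peaks, 9 (71.9%) in covered bp, 6 (22.8%) in Mesp1-Cre against Tbx1-Cre Ctrl and 2 (13.9%) in cKO against Mesp1-Cre cells, where a call means the same sign in all 3 pairs.

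Some directions turned. In cKO minus Ctrl distal peaks, Pax8 was 0.667 and Hmx2 0.333 with equal lists, and Hmx2 was 0.0303 per 10000 peaks. In Mesp1-Cre minus Tbx1-Cre Ctrl, Pax8, Gbx2 and Otx1 were 0.333 with equal lists, Pax8 was 0.0729 and Otx2 0.162 per 10000 peaks, and Otx2 was 0.167 without Tbx1-Cre Ctrl library 3 and 0.5 without Mesp1-Cre library 2, in a range of -1 to 0.5. In cKO minus Mesp1-Cre, Dlx5 and Dlx6 were 0.333 with equal lists, 0.161 per 10000 peaks, 0.333 without Mesp1-Cre library 1 and 0.333 without cKO library 2, in a range of -1.17 to 0.333. In the same comparison Hmx2 was 0.123 per 10000 peaks and 0.167 without Mesp1-Cre library 1, in a range of -0.833 to 0.167 without 1 library. The alternatives for distal peaks, regions merged up to 100 bp apart, and regions without 1 Mesp1-Cre library were chosen after seeing the data. The number of libraries limits every test to a p of 0.1 or more.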

Other observations

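Peaks at start sites of other genes made up 5 of the 48 regions at the 7 loci. The Bub3 promoter, next to Hmx2, was called in all 9 libraries, with 990, 727 and 887 bp in Tbx1-Cre Ctrl, 734, 638 and 768 bp in cKO and 1006, 690 and 736 bp in Mesp1-Cre libraries. The Psd4 promoter, 17.3 kb downstream of the nearest Pax8 start site, had 622, 638 and 657 bp in Ctrl libraries, 443 bp in cKO library 1 alone and 598, 304 and 415 bp in Mesp1-Cre libraries. A start site of 1700039E22Rik inside the Pax2 locus was called in Ctrl libraries 1 and 2 alone, with 483 and 307 bp. A region beside a U6 small nuclear RNA, downstream of Otx2, had 496, 656 and 308 bp in Ctrl, 200 bp in cKO library 2 and 259, 258 and 424 bp in Mesp1-Cre libraries.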
